A study of Mus musculus with 12 samples.

Results

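Untreated KSL cells of Fancc mutant mice were compared with those of wild-type mice across all measured genes. KSL cells are bone marrow cells sorted for c-Kit and Sca-1 and for lack of lineage markers, a fraction that holds haematopoietic stem cells and early progenitors. The comparison took the 3 arrays titled as mutant without TNF and the 3 titled as wild type without TNF, 6 of the 12 arrays of the series. The mutant mice are labelled Fancc-/-. All mice were 2 to 4 months old, and all cells spent 24 h in medium with serum and the cytokines SCF, Flt3L, IL-11 and IL-6. Thus the untreated cells were cytokine-stimulated and not freshly isolated. The other 6 arrays hold the same genotypes with 10 ng/ml TNF added, an inflammatory cytokine, and are used here only beside the untreated values. The labels describe neither the Fancc allele, nor the strain of either line, nor pooling of mice, and do not say whether each replicate had its own mice. The p-values then reflect only how far these samples vary, which may be partly technical.

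The product of Fancc belongs to the core complex of the Fanconi anaemia pathway, which ubiquitinates the FANCD2 and FANCI proteins at stalled replication forks and so starts the repair of DNA crosslinks. People with Fanconi anaemia lose bone marrow function, and FANCC-deficient blood progenitors are known to be unusually sensitive to inflammatory cytokines such as TNF. Mice without Fancc have few blood abnormalities at rest.

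Expression is given on the log2 scale of the deposited values, so a difference of 1 is a 2-fold difference, and differences are mutant minus wild type. Values ran from 2.14 to 14.94. Readings near 4 lie close to the floor of the arrays, where differences are compressed. Each of 18193 genes was represented by its brightest probe set, a group of short probes for 1 transcript, and tested with limma. A call is an adjusted p under 0.05 over all 18193 genes.

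The untreated arrays were alike over all genes, with Pearson correlations between genotypes from 0.9904 to 0.9971 across genes. Wild-type replicate 1 stood furthest apart. It correlated with no other untreated array above 0.9934, and limma's array weights gave it 0.312 against 0.731 to 1.67 for the other 5. Sex-linked transcripts were not balanced. Xist, the RNA that silences an X chromosome in female cells, read 5.47 and 5.06 on wild-type replicates 1 and 2 and 12.53 on replicate 3. On the mutant arrays Xist read 5.12, 12.73 and 12.04. The Y-linked Eif2s3y read 11.66, 11.79 and 10.46 on the wild-type arrays and 11.88, 4.16 and 11.32 on the mutant arrays, and Kdm5d and Uty were likewise lowest on mutant replicate 2 (3.18 and 4.06). Replicate 3 of each genotype thus carried signal of both kinds. Kit, which encodes the sorted receptor c-Kit, read 10.43 to 10.77 on wild-type and 9.95 to 10.38 on mutant arrays. Ly6a, which encodes Sca-1, had no probe set assigned to it alone and was not analysed here.

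Few genes separated the genotypes without TNF. One gene was called, the predicted chromosome 13 gene 6720489N17Rik. It was 1 of 18193 genes, or 0.0055%. 6720489N17Rik read 7.11, 6.70 and 6.88 on the wild-type arrays and 5.93, 5.56 and 5.66 on the mutant arrays. Every mutant array lay below every wild-type array, and the difference was -1.18 (SE 0.13, 3 arrays per group, limma adjusted p = 0.0388). Its second probe set read 6.77 on average in wild type and 5.65 in the mutant, a difference of -1.12 (SE 0.18). On the TNF-treated arrays, which share no array with the untreated comparison, the difference was -1.02 (SE 0.13, limma adjusted p = 0.0739), again without overlap. The call was lost after adding Xist and Eif2s3y to the model (adjusted p = 0.192), and likewise when only the 6 untreated arrays were fitted (adjusted p = 0.339), or without wild-type replicate 1 or 3 or mutant replicate 2 or 3 (adjusted p from 0.091 to 0.379). The size moved little in these fits, from -1.07 to -1.18.

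At an unadjusted p under 0.05, 749 genes (4.12%) differed, with 326 higher in the mutant (1.79%) and 423 lower (2.33%). The arrays of the groups did not overlap for 695 genes higher in the mutant (3.82%) and 778 lower (4.28%). Together these were 1473 genes (8.1%), so a lack of overlap on its own was common and does not mark a gene as different. Only 45 genes differed at least 2-fold, 17 with higher and 28 with lower values in the mutant, and the arrays did not overlap for 29 of them. The 95% interval of a single gene's difference reached 0.27 to each side for the median gene and 0.54 for the gene at the 90th percentile. For 98.9% of genes it reached less than 1 to each side.

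The second smallest p-value belonged to a neighbour of Fancc. Fbp1 encodes fructose-1,6-bisphosphatase, the enzyme that reverses the committed step of glycolysis. It read 8.71, 7.79 and 8.02 on the wild-type arrays and 11.20, 10.89 and 10.89 on the mutant arrays. The lowest mutant array stood more than 2 log2 units above the highest wild-type array, a difference of 2.82 (7.05-fold, SE 0.42), but Fbp1 missed the threshold (limma adjusted p = 0.225). With TNF the wild-type arrays read 6.19, 6.54 and 4.56 and the mutant arrays 10.26, 10.29 and 10.09. There Fbp1 was the single call among 18193 genes (0.0055%), with a difference of 4.45 (21.8-fold, SE 0.42, limma adjusted p = 0.00886). The change of this difference with TNF, 1.63 (SE 0.59), did not pass (limma adjusted p = 1).

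Fancc itself had no lower reading in the libraries labelled mutant. Its brightest probe set read 8.28, 8.22 and 8.49 in wild type and 9.16, 8.73 and 9.15 in the mutant, without overlap. The difference of 0.68 (SE 0.14) had the 12th smallest p-value and did not pass (limma adjusted p = 0.992). The other Fancc probe sets differed by 0.58 (SE 0.22) and 0.41 (SE 0.37). Whether any of these probe sets lies in the disrupted part of the gene was not determined, and one outside it would not check the genotype. The groups are therefore given as labelled.

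Fancc lies on chromosome 13 between Aopep, which encodes an aminopeptidase, and Ptch1, the Hedgehog receptor gene. Of the 10 measured genes on each side, Fbp1 lay 2 places and 6720489N17Rik 5 places away on the same side. Fbp2, the muscle form of the enzyme and next to Fbp1, differed by -0.35 (SE 0.12) and did not pass. By their brightest probe sets, the other 17 neighbours differed by -0.10 to 0.45, and none of them had an unadjusted p under 0.05. The brightest probe set of Aopep, one of these 17, showed no difference (0.04, SE 0.08). A second, dimmer Aopep probe set read 9.42, 9.15 and 9.27 in wild type and 8.46, 8.79 and 8.54 in the mutant, without overlap, a difference of -0.68 (SE 0.11, limma adjusted p = 0.404 over all probe sets), and -0.65 with TNF. Another Aopep probe set, dimmer still, differed by -0.86 (SE 0.37), also without overlap, and by -0.74 with TNF. The remaining one differed by -0.11 (SE 0.17). A dimmer probe set of Prxl2c, also one of the 17, differed by 0.34 (SE 0.12), with overlap. These dimmer probe sets were chosen after their values were seen. Over the whole of chromosome 13, 27 of 705 genes (3.83%) had an unadjusted p under 0.05, close to the 4.12% of all genes. Among the 12 smallest p-values, 4 belonged to it, namely 6720489N17Rik, Fbp1, Mylip and Fancc. The cut at 12 coincides with the rank of Fancc itself, just after Mylip at 11. This count therefore depends on where the cut falls and is no test. Mylip, which encodes a ubiquitin ligase that degrades the LDL receptor, differed by -0.57 (SE 0.12).

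**Figure D1:**
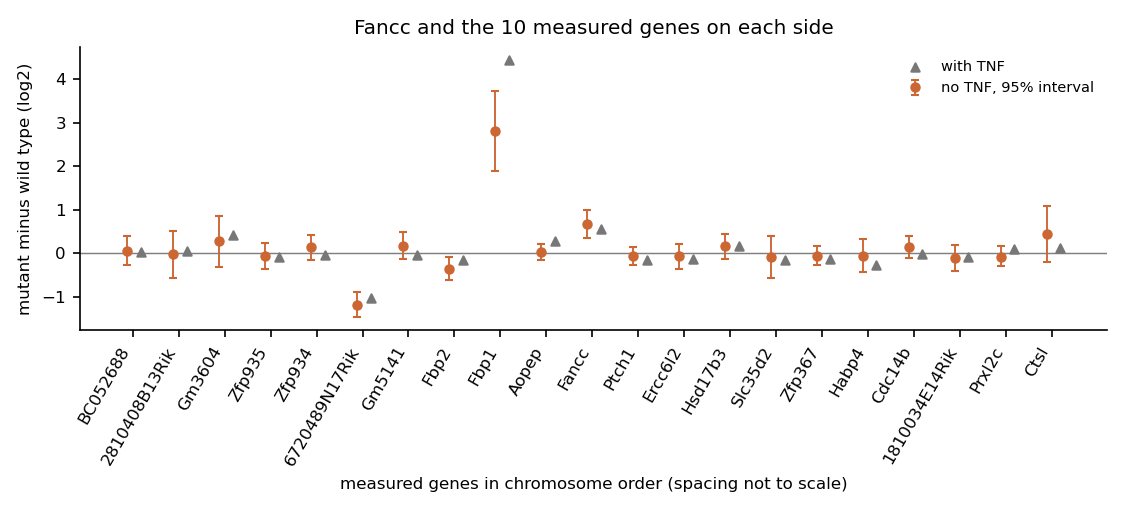
The vertical axis is mutant minus wild type (log2) for Fancc and the 10 measured genes on each side in chromosome order. Orange points with 95% intervals are untreated arrays and grey triangles TNF-treated arrays; Fbp1 (2.82) and 6720489N17Rik (-1.18) stand apart from the other neighbours, and Fancc is at 0.68.

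The promoter windows of the neighbours that stood apart are shown to give their sequence context, since both genes separate the genotypes in untreated and treated cells. Each holds 300 bases, mostly upstream of the annotated start (RefSeq, GRCm38.p6, minus strand), and capitals mark CpG dinucleotides. That of Fbp1 lies at chr13:62888233-62888532 and that of 6720489N17Rik at chr13:62624133-62624432. No measurement of this series bears on these windows directly.
Fbp1: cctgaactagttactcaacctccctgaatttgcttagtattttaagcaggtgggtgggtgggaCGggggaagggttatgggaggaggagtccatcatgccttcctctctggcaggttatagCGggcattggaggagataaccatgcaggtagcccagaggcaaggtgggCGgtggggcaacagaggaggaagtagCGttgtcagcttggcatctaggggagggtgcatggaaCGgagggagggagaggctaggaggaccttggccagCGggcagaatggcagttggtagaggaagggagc
6720489N17Rik: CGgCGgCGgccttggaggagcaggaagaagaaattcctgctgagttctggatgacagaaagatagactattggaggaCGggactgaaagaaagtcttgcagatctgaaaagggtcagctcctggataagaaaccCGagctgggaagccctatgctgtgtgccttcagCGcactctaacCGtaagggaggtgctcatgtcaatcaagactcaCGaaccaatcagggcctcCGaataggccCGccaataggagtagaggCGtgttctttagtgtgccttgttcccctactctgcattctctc
The Fbp1 window held 6 CpG and the 6720489N17Rik window 11, against a median of 7 over 32851 windows of the same length. Neither held TATAAA on either strand, which 13.6% of windows hold, and both held CCAAT on at least 1 strand, as 37.4% do.

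The widest difference of all belonged to Elobl, an elongin B-like gene. Elobl read 3.83, 3.87 and 4.03 on the wild-type arrays, near the floor, and 8.37, 8.83 and 7.88 on the mutant arrays. The difference of 4.45 (21.8-fold, SE 0.66) did not pass in the fit of all 12 arrays (limma adjusted p = 0.225) and passed when only the 6 untreated arrays were fitted (adjusted p = 0.00349). Its TNF-treated mutant arrays read 5.43, 3.79 and 7.40, so 1 of them was at the wild-type level of 3.77 to 3.94. The spread among those 3 arrays enters the fit of all 12.

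Cep85, which encodes a centrosomal protein, gave opposite readings from its 2 probe sets. The brighter read 11.29, 10.01 and 9.76 in wild type and 12.45, 12.33 and 12.34 in the mutant, a difference of 2.02 (4.05-fold, SE 0.34, limma adjusted p = 0.45). It passed without wild-type replicate 1 (difference 2.49, adjusted p = 0.00697) and with array weights (adjusted p = 0.0207). The dimmer read 9.55, 9.29 and 9.41 in wild type and 7.71, 7.90 and 7.89 in the mutant, a difference of -1.59 (SE 0.26). Neither probe set overlapped between genotypes, and both kept their direction with TNF (1.90 and -1.53). The mean of the 2 probe sets differed by only 0.22. Among the 11 genes with several probe sets at an unadjusted p under 0.01, Cep85 was the single gene whose probe sets pointed in opposite directions.

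The readings of Ctse and Ptms also depended on the probe set. Ctse encodes cathepsin E, an aspartic protease of immune cells and erythrocytes. Its brighter probe set read 7.93, 6.86 and 5.92 in wild type and 9.18, 9.76 and 9.0 in the mutant, a difference of 2.41 (5.3-fold, SE 0.66), while its other probe set differed by -0.21 (SE 0.29). With TNF the brighter set differed by 3.11 (SE 0.66). Ptms, which encodes the small acidic nuclear protein parathymosin, read 8.05, 7.82 and 8.34 against 9.31, 9.08 and 8.69, a difference of 0.96 (SE 0.18). Its other probe sets pointed the other way, by -0.25 (SE 0.11), narrowly without overlap, and by -0.19 (SE 0.12), with overlap. For Ctse and Ptms, the higher level in the mutant thus rested on 1 probe set each, and neither gene passed (limma adjusted p = 0.992 and 0.731).

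**Figure D2:**
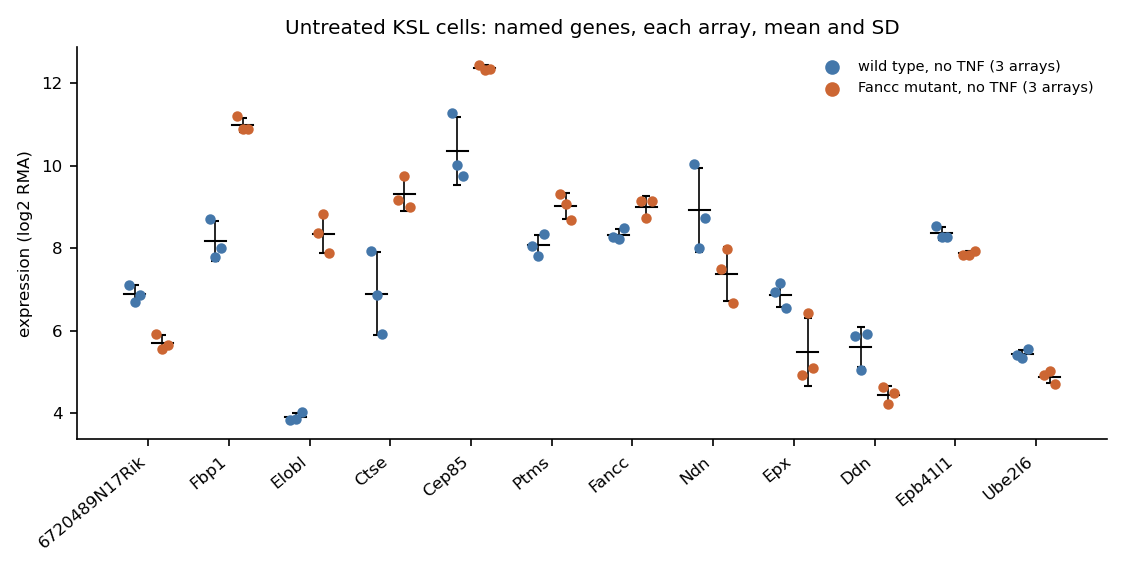
Each point is 1 untreated array (log2 expression, vertical axis) for 12 named genes, blue for wild type and orange for the mutant, with the mean and SD of 3 arrays. Elobl is near 4 on all wild-type arrays, and Fbp1 and Cep85 lie higher on every mutant array, while 6720489N17Rik, Ndn and Ddn lie lower on every mutant array.

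Among the other genes with the highest differences and no overlap between genotypes, none passed. Cxcl10, an interferon-induced chemokine that attracts T cells, read 5.76, 5.95 and 5.18 in wild type and 6.87, 6.46 and 8.01 in the mutant, a difference of 1.48 (SE 0.38). Tgfb3, a ligand of the TGF-beta family, differed by 1.42 (SE 0.48) at readings from 3.55 to 5.78. The tubulin gene Tubb2b differed by 1.20 (SE 0.31), Zg16 by 1.13 (SE 0.30), the paired receptor gene Pilrb1 by 1.06 (SE 0.49) and Bst1, which encodes the surface enzyme CD157, by 1.05 (SE 0.63). Bst1 differed by 0.54 without wild-type replicate 1. The other Zg16 probe sets, which were dimmer, differed by 0.47 (SE 0.1) and 0.61 (SE 0.17). The vitamin A esterifying enzyme gene Lrat had one of the 5 smallest p-values for a higher level, at a difference of just 0.35 (SE 0.07) near the floor, while its other probe set differed by -0.02.

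At the other end stood Ndn, which encodes necdin, a growth suppressor expressed in quiescent stem cells. Ndn read 10.04, 8.02 and 8.74 in wild type and 7.49, 7.98 and 6.68 in the mutant, a difference of -1.55 (SE 0.48). Wild-type replicate 1 was the highest, and wild-type replicate 2 lay only just above mutant replicate 2. Of its 8 probe sets, the 5 brightest differed by -1.29 to -1.69, and with TNF Ndn differed by -1.27 without overlap. Epx, the eosinophil peroxidase gene, differed by -1.40 (SE 0.42), the thrombospondin gene Thbs2 by -1.36 (SE 0.34) and Fscn1, which encodes an actin-bundling protein, by -1.27 (SE 0.40). Without wild-type replicate 1, Ndn differed by -1.0 and Fscn1 by -0.77. Ddn read 5.87, 5.06 and 5.92 against 4.63, 4.23 and 4.50, a difference of -1.16 (SE 0.22). Ddn passed only without wild-type replicate 2 (adjusted p = 0.0318). Shroom4 (-1.16), the transcription factor gene Nfe2l3 (-1.14), the growth factor gene Pdgfc (-1.10), the leukotriene-forming lipoxygenase gene Alox5 (-1.10) and Pdzd2 (-1.10) followed, the last at -0.70 without mutant replicate 1. For Thbs2, Fscn1, Nfe2l3, Pdzd2 and Pdgfc the other probe sets, all dimmer, gave differences smaller in size. That of Pdgfc differed by -0.5 (SE 0.35), with overlap. Averaged over probe sets, the difference was -0.58 for Thbs2, -0.37 for Fscn1, -0.35 for Nfe2l3 and -0.33 for Pdzd2. Smaller differences with small p-values were those of Epb41l1 (-0.49, SE 0.09), which encodes a membrane skeleton protein, Ube2l6 (-0.55, SE 0.10), the enzyme that attaches ISG15, and the cytokine gene Il4 (-0.48, SE 0.09). None of these passed over all genes. The other Epb41l1 probe sets differed by 0.18 (SE 0.21) and -0.93 (SE 0.27).

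The genotype differences of untreated and treated cells were set beside each other, since they share no array. Across 18193 genes, which are not independent replicates and share the RMA processing, the differences gave a Pearson's r of 0.34 and a Spearman's rho of 0.289. Of the 749 genes with an unadjusted p under 0.05 in untreated cells, 511 (68.2%) pointed the same way with TNF, against 60.6% of all genes. Of these, 102 were also under 0.05 with TNF in the same direction, which is 13.6% of the 749 and 10.0% of the 1018 genes under 0.05 with TNF. Arrays did not overlap in either treatment, with the same direction, for 53 genes higher and 106 lower in the mutant, out of 18193. Without TNF alone the counts were 695 and 778. How many genes would do so in both treatments by chance was not tested. Only 5 of the genes without overlap in either treatment differed at least 2-fold in both, namely Fbp1, Ctse, Cep85, 6720489N17Rik and Ndn. Epb41l1 (-0.62 with TNF), Fancc (0.56) and Ptms (0.78) kept their direction without overlap, whereas Tgfb3 (-0.24), Epx (0.74), Lrat (-0.13) and Il4 (0.04) did not keep theirs. No gene passed for a change of the genotype difference with TNF (0 of 18193 in limma, 527 with an unadjusted p under 0.05).

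**Figure D3:**
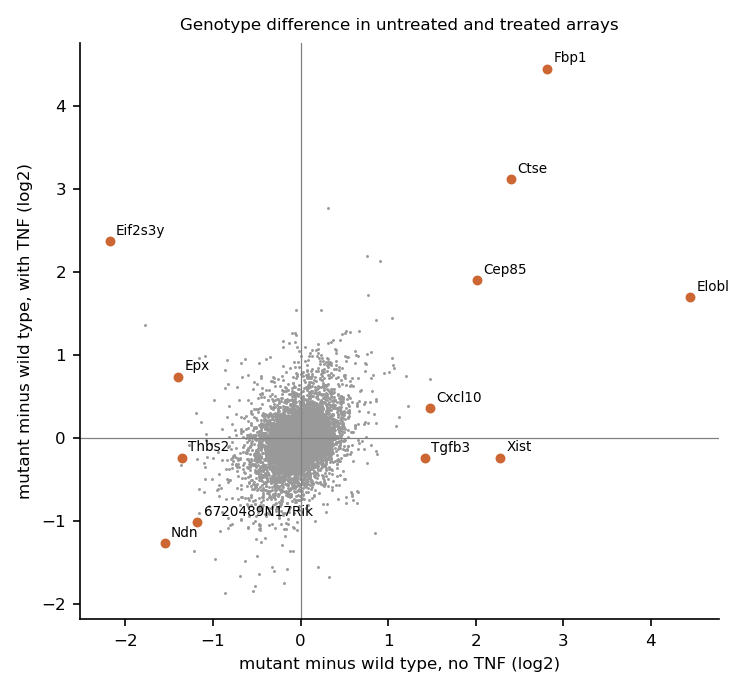
Each grey point is 1 of 18193 genes, with mutant minus wild type (log2) without TNF on the horizontal and with TNF on the vertical axis; named genes are orange. Fbp1, Ctse and Cep85 lie far out at the upper right and Ndn and 6720489N17Rik at the lower left, while Elobl is larger without TNF and Tgfb3 and Epx change sign.

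Gene lists were examined by their counts and medians. The 31 lists held 693 genes, of which 633 were measured, and 0 of these were called in limma. At an unadjusted p under 0.05, 13 (2.05%) were higher and 21 (3.32%) lower in the mutant, near the 1.79% and 2.33% of all genes. The median difference over all genes was -0.01, with 9868 of 18193 genes below 0 and 8324 above.

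**Figure D4:**
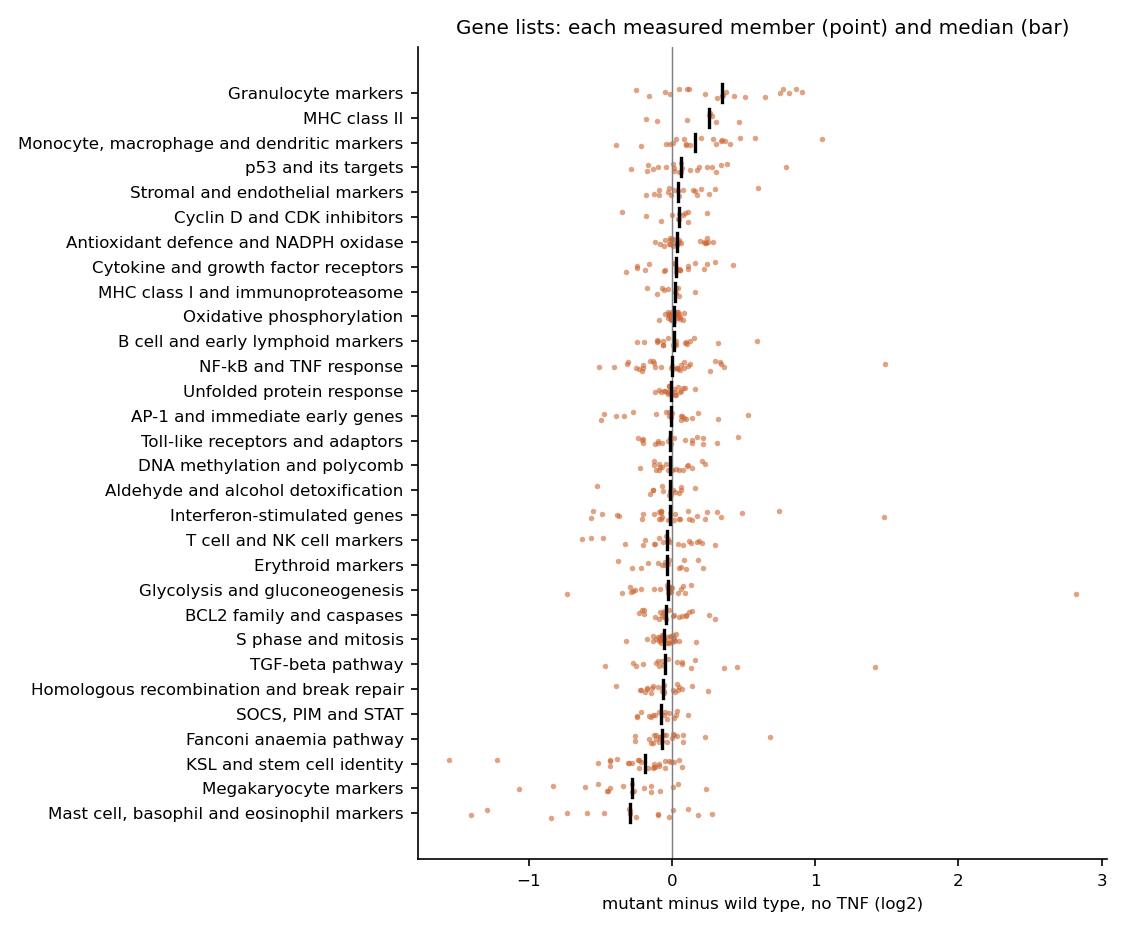
Each point is 1 measured member of a gene list, with mutant minus wild type (log2) in untreated cells on the horizontal axis, and the bar is the list's median; the sex-linked list is left out. Medians run from -0.29 for mast cell, basophil and eosinophil markers to 0.35 for granulocyte markers, and most lists lie within 0.1 of 0.

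DNA repair genes were expressed at like levels in both genotypes. All 23 measured Fanconi anaemia genes were above the median of all genes, at a mean level of 9.90 to 10.00 on wild-type and 9.89 to 9.98 on mutant arrays. Apart from Fancc, none had an unadjusted p under 0.05, and the median difference was -0.07. The 23 measured genes of homologous recombination and break repair differed by -0.39 to 0.25 (median -0.06). The largest of these in size was Xrcc5 (-0.39, SE 0.19), which encodes the Ku80 subunit of end joining. Of 22 measured p53 genes and targets, 16 had values above 0 and 6 below, and 0 reached an unadjusted p under 0.05 by their brightest probe sets. The differences ran from -0.28 to 0.80, the highest being that of Fas. Their median was 0.06, or 0.01 without wild-type replicate 1. The cell cycle inhibitor gene Cdkn1a, a main p53 target, read 11.31, 11.33 and 11.26 against 11.43, 11.63 and 11.76, without overlap, a difference of 0.31 (SE 0.15). Its dimmer probe set, chosen after its values were seen, read 9.05, 9.88 and 9.78 against 10.06, 10.22 and 10.55, also without overlap. That difference was 0.71 (SE 0.24, limma unadjusted p = 0.0148) and did not pass over all probe sets. With TNF it was 0.33 (SE 0.24).

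Proliferation and metabolism genes also differed little. The 31 measured S phase and mitosis genes differed by -0.32 to 0.17 (median -0.05), and their mean level was 11.76 to 11.85 in wild type and 11.75 to 11.77 in the mutant. The kinase gene Aurkb had the smallest p-value of them, with a difference of -0.17 (SE 0.09). Among 12 cyclin D and CDK inhibitor genes the median was 0.05 (-0.04 without wild-type replicate 1), with Cdkn2a at 0.24 (SE 0.13) near the floor. The 27 oxidative phosphorylation subunits lay between -0.09 and 0.09, and Sdha of complex II, with the smallest p-value among them, differed by -0.09 (SE 0.06). Of 26 measured genes of glycolysis and gluconeogenesis, Fbp1 was higher and 3 were lower in the mutant at an unadjusted p under 0.05. These were Fbp2, the enolase gene Eno2 (-0.73, SE 0.28) and the phosphofructokinase gene Pfkm (-0.27, SE 0.12). Without wild-type replicate 1 the counts were 1 higher and 0 lower, and Eno2 differed by -0.46. The 15 aldehyde and alcohol detoxification genes had a median of -0.02, with Aldh7a1 at -0.13 (SE 0.10). The 26 antioxidant and NADPH oxidase genes had a median of 0.04, with the sulfiredoxin gene Srxn1 at 0.25 (SE 0.17). Genes of the unfolded protein response stood between -0.11 and 0.16, with the chaperone gene Dnajc3 at 0.16 (SE 0.14).

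Inflammatory gene lists other than MHC class II had medians near 0 without TNF. Of 32 measured NF-kB and TNF response genes, 16 lay above and 16 below 0, with a median of 0.00. Beside Cxcl10, Relb, a subunit of the alternative NF-kB dimer, read 6.41, 6.31 and 6.60 in wild type and 5.81, 6.23 and 6.08 in the mutant, a difference of -0.40 (SE 0.12). Of 33 interferon-stimulated genes, Oasl1 (0.74, SE 0.19) and Ifit1 (1.48, SE 0.56) were higher and Ube2l6 and Gbp2 (-0.56, SE 0.25) lower at an unadjusted p under 0.05. The median was -0.02. Without wild-type replicate 1 the counts were 4 higher and 1 lower. Oasl1 did not overlap between genotypes, while Ifit1 and Gbp2 did. Gbp2 differed by -0.21 without wild-type replicate 1, and Ifit1 by 0.97 without mutant replicate 3. The 20 Toll-like receptor and adaptor genes had a median of -0.01, with Tlr6 at 0.46 (SE 0.19), which was no longer under 0.05 without wild-type replicate 1. The 11 MHC class I and immunoproteasome genes had a median of 0.02, with the proteasome gene Psmb10 at 0.16 (SE 0.11). The 8 MHC class II genes had a median of 0.26, or 0.17 without wild-type replicate 1. Among them H2-Aa differed by 0.47 (SE 0.22), or 0.29 without mutant replicate 3. All of these failed to pass over all genes.

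Signalling, survival and chromatin genes gave medians near 0. The 21 cytokine and growth factor receptor genes had a median of 0.03, with the G-CSF receptor gene Csf3r at -0.32 (SE 0.17). The 16 SOCS, PIM and STAT genes had a median of -0.07, with the kinase gene Pim2 at -0.24 (SE 0.09). The 18 TGF-beta pathway genes had a median of -0.05, and the ligand genes Tgfb3 and Tgfb2 (0.36, SE 0.13) were the members with an unadjusted p under 0.05. Without wild-type replicate 1 the list held 1 such member. The mean of the Tgfb2 probe sets differed by 0.07. The 23 BCL2 family and caspase genes had a median of -0.04, with the apoptosis effector gene Bak1 at 0.26 (SE 0.11). Among 20 AP-1 and immediate early genes, the orphan receptor gene Nr4a1 differed by -0.48 (SE 0.19). Among 20 DNA methylation and polycomb genes, the dioxygenase gene Tet3 differed by 0.21 (SE 0.12).

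Several stem cell and lineage marker lists had medians away from 0. Over all 18193 genes, 9868 had values below 0. Of 28 measured KSL and stem cell genes, 25 had values below 0 in the mutant and 3 above, with a median of -0.19. This median was -0.08 without wild-type replicate 1, on which the list's mean level was highest (9.81, against 9.37 and 9.52 on the other wild-type arrays and 9.19 to 9.39 on the mutant arrays). At an unadjusted p under 0.05, 4 were lower, and 2 without that array. Beside Ndn, these were Eng (-0.43, SE 0.13), which encodes the TGF-beta co-receptor endoglin, Kit (-0.38, SE 0.13) and the long-term stem cell marker Fgd5 (-1.22, SE 0.48). Without wild-type replicate 1 the difference was -0.64 for Fgd5, -0.28 for Eng and -1.0 for Ndn. Eng read 9.43, 8.87 and 9.09 against 8.83, 8.65 and 8.61, and Kit 10.77, 10.43 and 10.44 against 10.38, 9.95 and 10.17. In each, the gap between the nearest arrays of the groups was small, and Fgd5 overlapped. The dimmer Kit probe set differed by -0.23 (SE 0.22) and overlapped between genotypes. With TNF the list's median was -0.14, with 22 of 28 below 0. In these bulk samples, fewer cells of a type and less RNA per cell cannot be told apart.

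Granulocyte markers had the highest median. Of 20 measured, 16 had values above 0 and 4 below, with a median of 0.35, or 0.17 without wild-type replicate 1. Their mean level was 9.66, 10.05 and 9.92 on the wild-type and 10.07, 10.23 and 10.42 on the mutant arrays, so the groups were narrowly separated. Ltf, which encodes lactoferrin of secondary granules, read 7.19, 7.48 and 7.33 against 7.85, 8.36 and 8.40, a difference of 0.87 (SE 0.34), and was the single member with an unadjusted p under 0.05, of which there were 0 without wild-type replicate 1. With TNF the median was 0.37, with 17 of 20 above 0. The 20 monocyte, macrophage and dendritic markers had a median of 0.16 (0.09 without wild-type replicate 1), and their mean levels overlapped between genotypes.

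Megakaryocyte markers had values below 0 in the mutant for 15 of 18 measured genes, with a median of -0.28 (-0.20 without wild-type replicate 1). Their mean level was 7.84, 7.67 and 7.47 in wild type and 7.37, 7.29 and 7.35 in the mutant, without overlap. At an unadjusted p under 0.05, 4 were lower, also without that array. The integrin subunit gene Itgb3 read 10.40, 10.19 and 9.91 against 9.71, 9.48 and 9.77, a difference of -0.51 (SE 0.13). The platelet chemokine gene Pf4 read 10.22, 9.97 and 8.81 against 8.59, 8.25 and 8.96, a difference of -1.07 (SE 0.34), and wild-type replicate 3 fell within the mutant range. The platelet chemokine gene Ppbp differed by -0.83 (SE 0.34), and the collagen receptor gene Gp6 by -0.44 (SE 0.16) at readings under 4. With TNF the list's median was -0.11, with 11 of 18 below 0.

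Mast cell, basophil and eosinophil markers had a median of -0.29, the lowest apart from the unbalanced sex-linked transcripts, with 13 of 17 measured genes below 0 (-0.30 without wild-type replicate 1). Their mean levels were 6.12, 6.35 and 6.21 in wild type and 5.67, 6.17 and 5.76 in the mutant, so mutant replicate 2 fell among the wild-type arrays. Epx read 6.94, 7.15 and 6.55 against 4.93, 6.44 and 5.09, with the same array nearest to wild type. Il4 and Epx were lower and the tryptase gene Tpsab1 (0.28, SE 0.12), at readings under 4, higher at an unadjusted p under 0.05. With TNF the list's median had the other sign (0.15, with 12 of 17 above 0).

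Markers of T, NK, erythroid and stromal cells were mostly low, with 3 members of each list above the median of all genes. The 23 T and NK cell markers averaged 5.38 to 5.42 on wild-type and 5.18 to 5.43 on mutant arrays, with Cd3d near 4 (difference 0.30, SE 0.12), Il2rb at -0.48 (SE 0.19) and Gzma at -0.32 (SE 0.14). Mutant replicate 1 was lowest, and Il2rb differed by -0.23 without wild-type replicate 3. The 16 erythroid markers averaged 5.92 to 5.99 and 5.82 to 5.98, with the carbonic anhydrase gene Car2 at -0.21 (SE 0.08) as the single member under an unadjusted p of 0.05. The 20 B cell and early lymphoid markers had a median of 0.01, with Ms4a1, which encodes CD20, at -0.24 (SE 0.13) near the floor. The 18 stromal and endothelial markers averaged 5.79 to 5.85 and 5.84 to 5.96, with Col1a1 at 0.60 (SE 0.26), where mutant replicate 2 read 5.92 and the other 5 arrays 4.44 to 4.92. On 2 of the 3 mutant arrays the stromal mean lay above every wild-type array. The part of these cell types in the differences above was not tested.

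**Figure D5:**
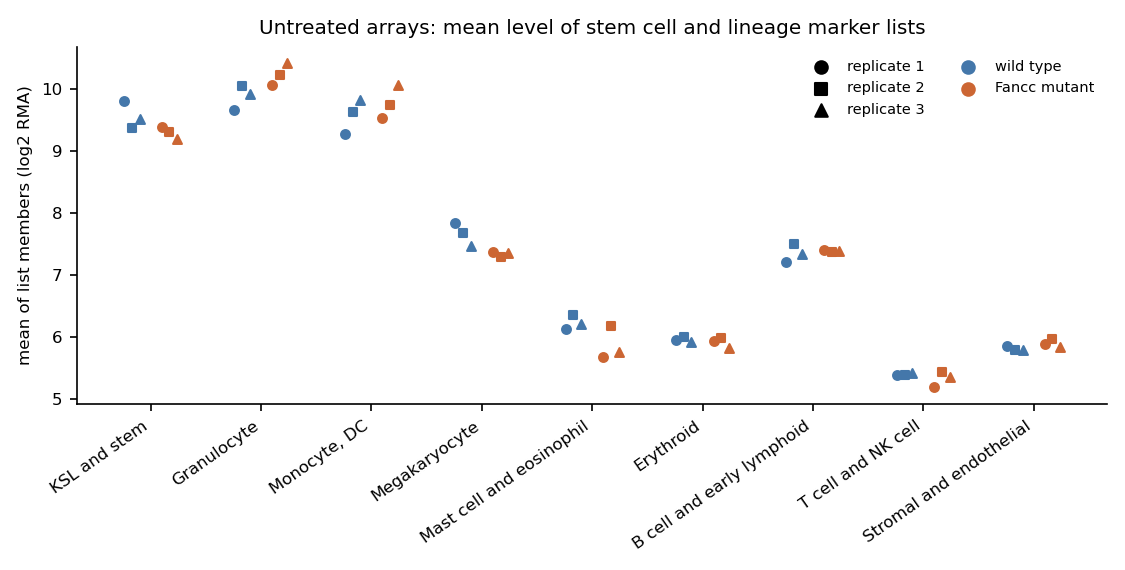
Each point is the mean log2 level of a list's measured members on 1 untreated array, blue for wild type and orange for the mutant, with symbol shapes for the replicates. Megakaryocyte means are lower on every mutant array (7.29 to 7.37 against 7.47 to 7.84), granulocyte means are higher on every mutant array by a narrow margin, and T cell, erythroid and stromal means lie between 5.18 and 5.99 on all 6 arrays.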

How the data were processed

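Deposited log2 values, 1 for each probe set of single-colour Affymetrix MOE430 2.0 mouse arrays, came from RMA, run by the authors, which corrects background, equalises array distributions and combines probes, per the submitters' processing notes. The log base was read from the values. An overall shift between groups cannot be seen after RMA, and the number of arrays limits the precision. Per the labels' protocols, total RNA in nanogram amounts was amplified before hybridisation.

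Of 45037 probe sets that are not controls, 34945 had 1 gene symbol in the platform annotation, 932 had several, and 9160 were not listed and are unnamed here. Each of 18193 genes took its single-symbol probe set with the highest mean, and 9010 had several. Gene order came from GRCm38.p6. Limma 3.58.1 in R 4.3.3 fitted 1 mean per group over all 12 arrays, with 2-sided tests and Benjamini-Hochberg adjustment over all genes at 0.05. The scripts were tested on simulated data. Genes and lists were chosen with earlier results of these data known. Named genes were calls, the 10 highest and 10 lowest differences without overlap, the 5 smallest p-values per direction, Fancc with neighbours, and each list's members by p. Predicted genes were skipped unless called, and single probe sets were chosen after their values were seen.

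Alternatives tried were a filter on dim genes, a replicate block, the mean of probe sets, 2 other scalings, trended and robust moderation, array weights, only the 6 untreated arrays, Xist and Eif2s3y as covariates, all probe sets, a 2-fold minimum, and leaving out each untreated array. List counts without wild-type replicate 1 and the comparison of probe sets of 1 gene were added after the data were seen.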

Additional observations from a re-analysis of the deposited data

Results flagged for a closer look

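Probe sets without a gene name were left out of the comparison of genes. When limma was fitted to all 45037 non-control probe sets, 2 such probe sets were called between untreated genotypes. Probe set 1431213_a_at read 8.84, 9.18 and 8.80 on the wild-type arrays and 11.89, 11.88 and 12.24 on the mutant arrays, a difference of 3.06 (SE 0.29, limma adjusted p = 0.0229). Every mutant array lay more than 2 log2 units above every wild-type array. With TNF the difference was 3.50 (SE 0.29, adjusted p = 0.00456). Probe set 1455869_at read 10.51, 10.23 and 10.05 against 12.59, 12.61 and 12.76, a difference of 2.39 (SE 0.25, adjusted p = 0.0315), and 2.91 with TNF (SE 0.25, adjusted p = 0.00456). Both thus separated the genotypes in each treatment, on arrays that the treatments do not share. The annotation used here gives neither a gene.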

How the results depend on the processing

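With 1 call in the comparison of genes without TNF, the count moved easily. It was 1 with a replicate block, the mean of probe sets, centred arrays, cyclic loess or a 2-fold minimum (6720489N17Rik each time, adjusted p from 0.0175 to 0.0415), and 1 with only the 6 untreated arrays (Elobl). It was 0 with the filter on dim genes, which left 6720489N17Rik untested, 0 with trended and robust moderation (adjusted p of 6720489N17Rik = 0.0641), 0 with the Xist and Eif2s3y covariates, 2 with array weights (6720489N17Rik and Cep85) and 3 over all probe sets. Leaving out 1 array gave 0 to 3 calls: 0 without wild-type replicate 3 or mutant replicate 2 or 3, 1 without wild-type replicate 1 (Cep85) or mutant replicate 1, and 3 without wild-type replicate 2 (6720489N17Rik, Ddn and Glyat, the last named after its values were seen). Same-numbered arrays of the genotypes did not deviate together throughout (r = 0.16, -0.16 and 0.28 across genes). These deviations are from means of only 3 arrays, so they cannot show whether the numbers pair the arrays. Over 72 named genes, 1027 of 1046 values kept their direction and side of the threshold, 7 lost and 4 gained a call, and 8 changed sign, none of them a call: Aopep with the mean of probe sets (-0.40), array weights (-0.01) or without wild-type replicate 1 (-0.04; leave-one-out range -0.04 to 0.09), Sdha with the mean of probe sets (0.08), Uty with the covariates (0.30), and, without mutant replicate 2, Eif2s3y (0.30; leave-one-out range -3.56 to 0.30), Kdm5d (0.08; -2.96 to 0.08) and Uty (0.32; -1.67 to 0.32). The cause was not tested.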

Other observations

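Some genes of common interest in these cells were looked up after the values of the lists were seen. Mpo, the myeloperoxidase gene of granulocyte precursors, read 13.59 to 13.69 on all 6 untreated arrays, a difference of -0.01 (SE 0.31). Its TNF-treated arrays read 11.83 to 13.36, and their spread enters this SE. Cd34, a surface marker of progenitors, differed by -0.13 (SE 0.08), and the cytokine receptor gene Flt3 by -0.13 (SE 0.18). The long-term stem cell markers Procr (-0.23, SE 0.39) and Slamf1 (-0.30, SE 0.23, near the floor) and the quiescence gene Cdkn1c (-0.09, SE 0.24) overlapped between genotypes.

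Camp, which encodes a granule peptide of neutrophils, read 8.92, 9.36 and 9.21 in wild type and 9.75, 10.33 and 10.14 in the mutant, a difference of 0.91 (SE 0.64), and 2.13 with TNF. Its TNF-treated wild-type arrays read 4.6, 6.6 and 7.67, and their spread enters this SE. Prg2, the eosinophil granule major basic protein gene, read 9.03, 10.32 and 10.20 against 7.38, 9.75 and 8.54, a difference of -1.29 (SE 0.58), and 0.89 with TNF. Like Epx, it thus had the opposite sign with TNF. Neither gene passed in limma (adjusted p = 0.992 for each without TNF).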
